A study of Homo sapiens with 2 samples.

Results

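The galectins are a family of small proteins that bind beta-galactoside sugars, and 6 of them, LGALS1, LGALS2, LGALS3, LGALS4, LGALS8 and LGALS9, were described here together with LGALS3BP, a secreted glycoprotein that galectin-3 binds. The 7 genes were taken by symbol from the 26255 in each deposited table. They were chosen by symbol with results of these data known, among them the ratio of LGALS1 between the diets, so that every difference below is a description and carries no test. RNA sequencing was done on xenografts of HT-29, a long-established line of human colon cancer cells, placed under the skin of female NOD SCID mice, which lack T and B cells and were 5 weeks old when obtained. The mice ate either normal food (the normal diet) or food lacking methionine, tryptophan and niacin (the depleted diet) for 2 weeks, while another passage of the design text speaks of 3 weeks. The cells had been grown in full medium before implantation, and all tumours came from this 1 line. There was 1 library per diet, 2 in all, so no value has a replicate and no difference can be set against the spread between tumours. The sources used here do not say how many tumours went into a library.

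Galectins are made in the cytosol and leave the cell without a signal peptide. Outside the cell they cross-link glycoproteins and glycolipids into lattices, and inside it some of them bind sugars exposed on broken endosomes and lysosomes. The prototype members, galectin-1 and galectin-2, have a single sugar-binding domain and pair into dimers. Galectin-3, the chimera type, carries a long flexible tail and forms larger assemblies, while the tandem-repeat members galectin-4, galectin-8 and galectin-9 join a pair of such domains in 1 chain. In the gut, galectin-4 is an epithelial protein of lipid rafts and apical transport, and galectin-3 is also abundant in epithelium. Galectin-1 is best known from stromal cells and for its effects on T cells, which these hosts do not have.

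The upstream sequences of LGALS4 and LGALS3BP are shown because the first was the highest member and the second the only one that was higher on the depleted diet. They are the 250 bases before the annotated start, 5′ to 3′ on the gene's strand, from RefSeq on GRCh38.p14. LGALS4 lies on the minus strand at chr19:38812946-38813195 and LGALS3BP on the minus strand at chr17:78979924-78980173. Capitals mark TATAA, the core of a TATA box, in LGALS4, and, in LGALS3BP, a GAAA pair: GAAA, any 2 bases, and GAAA again, as in interferon response elements.
LGALS4: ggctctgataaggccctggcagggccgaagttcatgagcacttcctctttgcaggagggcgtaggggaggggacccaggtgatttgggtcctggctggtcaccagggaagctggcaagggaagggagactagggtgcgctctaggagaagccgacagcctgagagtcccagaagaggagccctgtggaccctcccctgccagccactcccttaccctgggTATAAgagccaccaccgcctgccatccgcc
LGALS3BP: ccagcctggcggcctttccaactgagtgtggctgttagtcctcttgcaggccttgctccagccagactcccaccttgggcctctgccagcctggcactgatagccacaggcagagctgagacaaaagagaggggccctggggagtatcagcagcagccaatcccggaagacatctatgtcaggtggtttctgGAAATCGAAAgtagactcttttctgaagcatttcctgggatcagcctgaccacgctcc

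Both motifs were searched on both strands, and they do not overlap. In LGALS4 the TATAA ran from base 30 to base 26 before the start. In LGALS3BP the GAAA pair ran from base 58 to base 49 before it. Of 34943 windows of the same length, 19% held TATAA and 3.02% held a GAAA pair. RefSeq windows were matched for 6 of the 7 members, 8 windows in all, 3 of them for LGALS8, and LGALS1 had no entry. The TATAA of LGALS4 is on the gene's strand. The first window of LGALS8 also held TATAA, but on the opposite strand, from base 232 to base 228 and from base 58 to base 54 before the start. No other window held a GAAA pair. A match is a run of letters, and whether a factor binds there was not measured.

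Levels are in FPKM, the deposited unit, which scales fragments by transcript length and by depth and so allows a comparison between genes. The difference between the diets is given as log2((depleted + 1)/(normal + 1)), called the log2 ratio, with a pseudocount of 1 FPKM that understates the difference of low genes. All 7 members passed the filter of a mean of at least 1 FPKM, as did 12414 genes. Over these genes the median log2 ratio was close to 0, with quartiles of -0.13 and 0.13. Estimated depth was 7.88e+06 fragments in the normal-diet library and 7.58e+06 in the other. The labelled cell type was checked against 10 markers of colon epithelium, all of them above the filter, with KRT20 at 610 FPKM with normal food and 540 FPKM with depleted food and CDX2 at 5.14 and 4.92 FPKM. In bulk tumours, fewer cells of a type and less RNA per cell cannot be told apart.

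LGALS4 was by far the highest galectin in both tumours. It was at 1346 FPKM with normal food and 1150 FPKM with depleted food, rank 71 and rank 74 among all genes. It held 81.2% of the summed FPKM of the 6 galectins on the normal diet and 81.0% on the depleted diet, so the share was nearly the same while the level was 14.6% lower. LGALS3 was next among the galectins, at 190 and 167 FPKM. LGALS2, which is found mainly in the gut, was at 68.2 and 57.9 FPKM, and LGALS9 at 32.4 and 30.9 FPKM. LGALS1 was at 11.1 and 4.45 FPKM and LGALS8 at 10.3 and 8.92 FPKM. LGALS3BP was at 307 and 335 FPKM, between LGALS4 and LGALS3.

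The order of the 7 levels was the same in both libraries except at its lower end. LGALS1 was above LGALS8 on the normal diet and below it on the depleted diet. LGALS4 was 122 times as high as LGALS1 on the normal diet and 258 times on the depleted diet. LGALS1 was at an estimated 31 and 12 fragments and its ratio helped to choose the members, so nothing is read from either comparison. The ratio of LGALS4 to LGALS2, the other galectin best known from gut epithelium, was 19.7 and 19.9.

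**Figure D1:**
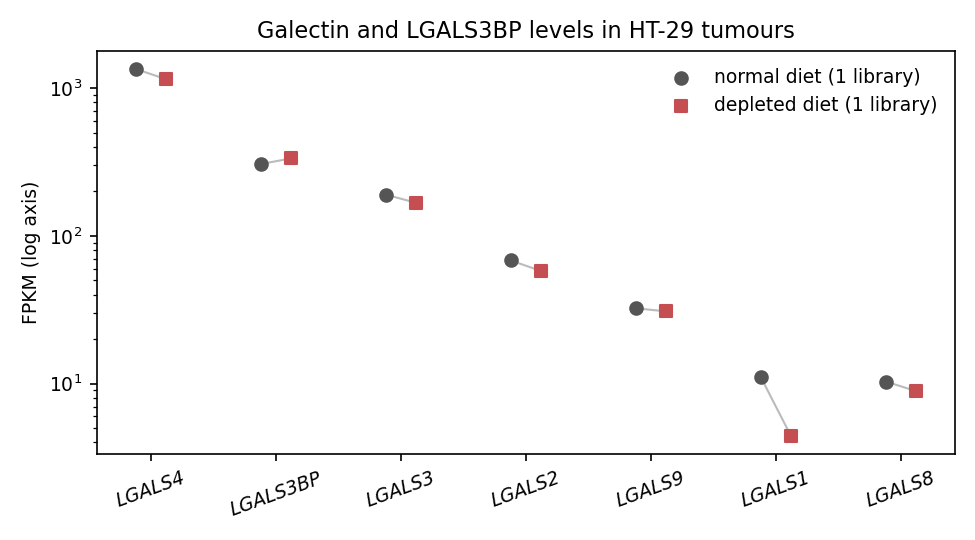
FPKM of the 6 galectins and LGALS3BP on a log axis, ordered by the normal diet, with 1 point for each library. LGALS4 is the highest at 1346 and 1150 FPKM. LGALS1, whose ratio helped to choose the members, has the steepest line, from 11.1 to 4.45 FPKM.

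Of the 7 members, 6 were lower on the depleted diet and 1 was higher, with a median log2 ratio of -0.19, and 50.6% of all genes kept were lower by any amount and 49.4% higher. The share over all genes is not matched on level, here or for the gene lists below. Over the 400 genes nearest in mean FPKM, short RNAs left out, the median was -0.075 for LGALS4, -0.057 for LGALS3BP and -0.048 for LGALS3. It was -0.021 for LGALS2, 0.0033 for LGALS1, 0.0096 for LGALS9 and 0.026 for LGALS8. When the 2 libraries were set to equal sums without short RNAs, 6 members were still lower, with a median of -0.15, while the share of all genes that were lower was 40.5%. At the 2-fold mark 1 member was lower, LGALS1, and 0 were higher, while 0.371% of the genes kept were at least 2-fold lower and 0.524% higher. These shares include genes of short RNAs, which made up 20 of the 46 lower genes and 40 of the 65 higher. The ratio of LGALS1 was among the values that chose the members, so nothing is read from the count of members. Without LGALS1 the log2 ratios ran from -0.23 to 0.13, a band of 0.36.

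LGALS1 encodes galectin-1, a prototype member. Its level was 11.1 FPKM in the normal-diet library and 4.45 FPKM in the depleted-diet library, a log2 ratio of -1.15. That is the lowest of the 9382 genes that averaged 5 FPKM or more, genes of short RNAs left out. As this ratio helped to choose the members, nothing is read from the rank. The FPKM of low genes move in steps of 1 fragment, so the fragments behind the value could be recovered. The ratio of the LGALS1 levels was that of 31 fragments to 12 within a relative tolerance of 1e-05. An annotated transcript of 560 nt and the estimated depth also gave 31.0 fragments for the normal diet. The difference therefore rests on 43 fragments in all. With no pseudocount the level was 2.49-fold lower on the depleted diet, with an exact (Clopper-Pearson) 95% interval of 1.24 to 5.31-fold that covers counting error only. The interval takes no account of the choice of LGALS1 with its ratio known, so it is no test of a difference.

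Other genes with as few fragments also differed widely. There were 49 genes with a single annotated transcript and an estimated 30 to 60 fragments over both libraries. With no pseudocount, 14.3% of them were at least 2-fold different, 6 higher and 1 lower on the depleted diet, and the SD of their log2 ratios was 0.65. LGALS1 lay at -1.31 on that scale, just below the lowest of them at -1.30. That value helped to choose the members, so nothing is read from its place. The fragments of the 49 genes are estimates from annotated lengths, which do not hold for every gene, so the match is rough. Of 104 genes with a single annotated transcript and at least 1000 estimated fragments, 0 were at least 2-fold different, and the SD was 0.17.

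The 5 genes with the log2 ratio nearest to that of LGALS1, among those at 5 FPKM or more, were TOPORS-AS1 (-1.12), HIST2H2BC (-1.09), PPP1R14D (-1.06), the phosphatase gene DUSP1 (-1.04) and NR0B2 (-0.99), which encodes a nuclear receptor without a DNA-binding domain. With 2 libraries, likeness means only that 1 number is close.

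Galectin-1 is made by fibroblasts and other stromal cells, so markers of such cells are given beside it. Of 11 human fibroblast markers 3 were above the filter, COL1A1, LUM and SPARC. The summed FPKM of the 11 was 11.4 on the normal diet and 12.6 on the depleted diet. DCN and THY1 were listed at 0 in both libraries, and VIM was at 0.591 and 0.478 FPKM. SPARC, a matrix protein, was 5.70 and 7.57 FPKM (0.35), a difference in the opposite direction to LGALS1. LUM, at low values, was 1.99 and 0.966 FPKM (-0.61). Host cells are mouse cells and the values are for human genes. Whether mouse reads entered the value of LGALS1 was not tested.

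LGALS2, the other prototype member, was 68.2 FPKM with normal food and 57.9 FPKM with depleted food, a log2 ratio of -0.23. Beside it stood the 400 genes nearest in mean FPKM, short RNAs left out, whose central 95% ran from -0.34 to 0.35. LGALS2 lay inside this range, with 25 of the 400 lower. Its transcript of 591 nt gave an estimated 208 and 170 fragments, for which the counting error of the log2 ratio is 0.15 (SE). For LGALS1, whose ratio helped to choose the members, the range of genes of like level was -0.53 to 0.47. Those genes are matched on FPKM and not on fragments, and their SD of 0.24 is below the counting error of LGALS1 itself, 0.49 (SE), so nothing is read from its place beside them.

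LGALS3, the chimera member, was 190 FPKM with normal food and 167 FPKM with depleted food, a log2 ratio of -0.18. The 400 genes of like level had a central 95% of -0.32 to 0.24, and 40 of them were lower. LGALS3BP, which encodes the galectin-3 binding protein, was the member with the opposite sign. It was 307 FPKM with normal food and 335 FPKM with depleted food, a log2 ratio of 0.13. Its neighbours in level had a central 95% of -0.33 to 0.27, and 40 of 400 were higher. The level of LGALS3BP was 1.61 times that of LGALS3 on the normal diet and 2.00 times on the depleted diet. Both log2 ratios lay inside the range of genes of like level.

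LGALS4, LGALS8 and LGALS9 are the tandem-repeat members. LGALS4, at the levels given above, had a log2 ratio of -0.23 at an estimated 14113 and 11598 fragments for a transcript of 1535 nt, for which the counting error is 0.02 (SE). The difference is thus far beyond counting error, but 30 of the 400 genes nearest in level were lower still, and their central 95% ran from -0.34 to 0.21. Few genes are as high as LGALS4, so these neighbours spanned means of 164 to 5852 FPKM. LGALS8, which binds damaged vesicles and recruits the autophagy receptor CALCOCO2, was 10.3 and 8.92 FPKM, a log2 ratio of -0.19 against a range of -0.41 to 0.49. Its transcripts differ widely in length, so its fragments are less certain, at about 98 and 81 for a transcript of 1402 nt. LGALS9, a galectin that interferon induces, was 32.4 and 30.9 FPKM, with a log2 ratio of -0.07, or -0.02 with equal sums, the smallest of the members in size.

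The 4 members LGALS2, LGALS3, LGALS4 and LGALS8 lay from -0.23 to -0.18, at levels from about 10 to over 1000 FPKM. They were put together after their values were seen. The counting error is 0.15 (SE) for LGALS2 and an estimated 0.22 (SE) for LGALS8, wider than this band. Nothing is therefore read from how close the values are. Each was inside the central 95% of genes of its own level.

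**Figure D2:**
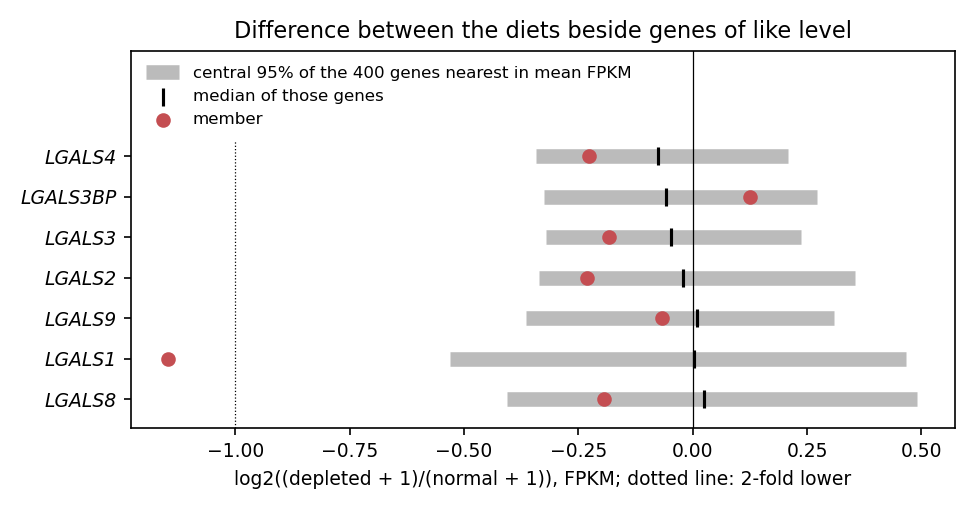
Log2 ratio of each member (red), with a pseudocount of 1 FPKM, beside the central 95% (grey bar) and the median (tick) of the 400 genes nearest to it in mean FPKM. The 6 members other than LGALS1 are inside their bars; the bar of LGALS1, at -1.15, is of genes matched on FPKM and not on fragments.

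The other 13 symbols of the family were low. In both libraries 6 were listed at 0, among them CLC, the galectin of eosinophils, and LGALS13 and LGALS14, which are placental. LGALSL, the galectin-like gene, was 5.05 FPKM with normal food and 4.30 FPKM with depleted food (-0.19), and LGALS7B was 1.77 and 2.30 FPKM (0.25), which is 4 and 5 fragments. LGALS7, a near-identical copy of LGALS7B, was at 1 fragment in each library, and how reads were divided between the copies is uncertain. LGALS9B and LGALS9C are near-identical to LGALS9. LGALS9B was listed at 0 in both libraries, and LGALS9C was at 0.0837 and 0 FPKM, so little was assigned to the copies. LGALS8-AS1, antisense to LGALS8, was at 0 and 0.107 FPKM.

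The sugars that galectins bind are built by other enzymes, whose genes differed in both directions. The list had 20 genes, for glycan branching, N-acetyllactosamine and capping, and UGT8 and GAL3ST1 for the glycolipid sulfatide. Of these, 19 were above the filter, 9 of them higher with depleted food and 10 lower. Their median log2 ratio was -0.04 against a value close to 0 over all genes kept, of which 50.6% were lower. Single genes ran from -0.26 to 0.37. MGAT2, which starts a branch on N-glycans, was 9.32 FPKM with normal food and 11.9 FPKM with depleted food (0.32). GCNT3, which branches mucin-type glycans, was 160 and 203 FPKM (0.34). B3GNT2 and B3GNT3, which add N-acetylglucosamine to extend chains, were lower, B3GNT2 at 17.1 and 14.3 FPKM (-0.24) and B3GNT3 at 23.7 and 19.7 FPKM (-0.26). MGAT5, which makes a branch whose extended chains galectin-3 binds, was 22.5 and 24.6 FPKM (0.12). ST6GAL1, whose sialic acid blocks galectin-1, was 4.92 and 5.97 FPKM (0.24). The last 2 genes are named for their role, outside the rule for named genes, after their values were seen.

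Surface glycoproteins that galectins bind were 10 higher and 13 lower among 23 above the filter of 26, with a median of -0.05. Of all genes kept, 50.6% were lower. The highest ratios were NRP1, a partner of galectin-1, at 6.02 and 7.64 FPKM (0.30) and the glutamine transporter SLC1A5 at 211 and 244 FPKM (0.21). The lowest at a mean of at least 5 FPKM were MUC1, a mucin that galectin-3 binds, at 7.79 and 6.10 FPKM (-0.31) and the transferrin receptor TFRC at 96.7 and 82.6 FPKM (-0.23).

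Genes that act with galectins on damaged lysosomes were lower in 15 of 19 above the filter, of 20, with a median of -0.10, beside 50.6% of all genes kept. Scaled to a common sum without short RNAs, 14 of 19 were lower with a median of -0.05, beside 40.5% of all genes. OPTN, an autophagy receptor, was 29.8 FPKM with normal food and 21.4 FPKM with depleted food (-0.46), and SQSTM1, another such receptor, was 162 and 135 FPKM (-0.26). CALCOCO2, the receptor that galectin-8 recruits, was 16.6 and 18.2 FPKM (0.12), and ATG16L1 was 10.2 and 11.5 FPKM (0.15). Autophagy genes had been seen to be lower in the same library before the list was made, so it is not independent of that result.

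Apical and raft genes, the setting in which galectin-4 works, were lower in 8 of 13 above the filter, of 17, with a median of -0.04. The share of all genes kept that were lower was 50.6%. Scaled to a common sum without short RNAs, 6 of 13 were lower, beside 40.5% of all genes, and the median was 0.0056. MUC13, a membrane mucin, was 293 and 229 FPKM (-0.35), while UGT8, which makes the lipid precursor of the sulfatide that galectin-4 binds, was 35.4 and 39.6 FPKM (0.16), and CEACAM5 was 9.58 and 9.97 FPKM (0.05). The list shares MUC1, CEACAM5, ANPEP and DPP4 with the surface partners, UGT8 and GAL3ST1 with glycan synthesis, and VIL1 with the epithelial markers. The median of -0.04 is the value of GAL3ST1, which is also the median of the glycan synthesis list. Markers of colon epithelium were lower in 7 of 10, beside 50.6% of all genes kept, with a median of -0.07. With the same scaling 7 of 10 were lower, beside 40.5% of all genes, and the median was -0.02. These shares of all genes are not matched on level, and the markers reach high levels, such as KRT8 at 3849 and 3313 FPKM. Before scaling, the 400 genes nearest to LGALS4 in level had a median of -0.075, so nothing is read from the median of the markers. The lowest ratios of these markers were CDH17 at 10.5 and 7.93 FPKM (-0.37) and KRT19 at 1216 and 1010 FPKM (-0.27). The highest were KRT18 at 2076 and 2334 FPKM (0.17) and VIL1 at 89.2 and 90.6 FPKM (0.02).

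Interferon-induced genes were lower in 10 of 15, with a median of -0.12, beside 50.6% of all genes kept. With the same scaling 9 of 15 were lower, beside 40.5% of all genes, and the median was -0.07. IFIT3 was 13.0 FPKM with normal food and 7.85 FPKM with depleted food (-0.66), and IFIT1 was 6.94 and 4.96 FPKM (-0.41). BST2 was 105 and 111 FPKM (0.07), and OAS1 was 38.7 and 40.7 FPKM (0.07). LGALS3BP, whose upstream window holds the GAAA pair shown above, and LGALS9 had log2 ratios of 0.13 and -0.07. The first was above the highest of the 15 genes, BST2, and the second lay within their range.

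Human markers of leukocytes and vessels were few. Host cells are mouse cells, so these values do not measure how many host leukocytes or vessels the tumours held. Of 11 macrophage and neutrophil markers 3 were above the filter, and the summed FPKM of the list was 28.0 and 24.5, most of it CD68 at 25.6 and 20.8 FPKM (-0.29). The other 2, CD14 at 0.709 and 1.49 FPKM and LAPTM5 at 0.873 and 1.75 FPKM, were higher on the depleted diet at low values (0.55 each), so the median of the 3 was 0.55, opposite in sign to the change in the sum. TYROBP, C1QA, S100A8 and S100A9 were listed at 0. Of 7 endothelial markers 1 was above the filter, ESAM at 21.0 and 21.7 FPKM (0.05), and KDR, TEK and CLDN5 were at 0. Of 7 lymphocyte markers 0 were, and CD3D, CD3E, CD2 and MS4A1 were at 0. The part of host cells in the galectin values was not tested.

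**Figure D3:**
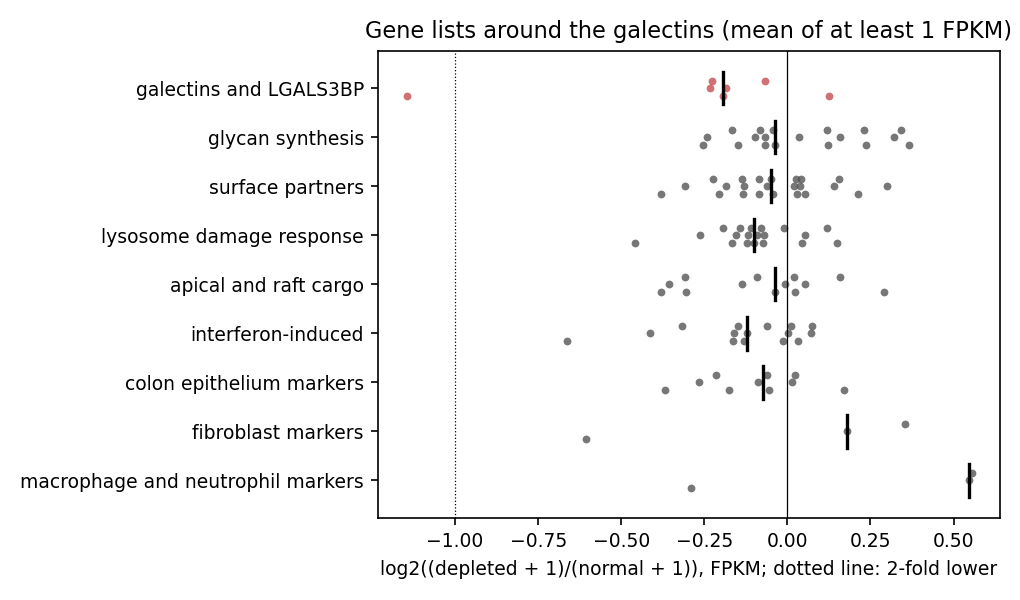
Log2 ratio of each gene with a mean of at least 1 FPKM in the galectins (red) and in 8 gene lists (grey), with the median of each as a black line; points are offset vertically for legibility. LGALS1, whose ratio helped to choose the members, is at -1.15 and is the only point beyond the dotted line at 2-fold lower. The medians of the lists with over 3 genes lie between -0.12 and -0.04.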

How the data were processed

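RNA sequencing of 2 tumours or tumour pools, 1 library per diet, was taken from tables of FPKM that the authors deposited, the unit being given per the file headers. Per the submitters' processing notes, which give no roles, the tools were Cuffdiff 2.2.1, TopHat2 2.1.1, SAMtools 0.1.18 and Bowtie2 2.2.8, with build hg19. The libraries were stranded mRNA libraries, per the labels' protocols. The sources used here do not give the annotation, the strand setting or any removal of mouse reads.

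Groups came from the diet in the labels. Ratios used a pseudocount of 1 FPKM, genes averaging 1 FPKM or more were kept, and 2-fold was the mark. FPKM are not counts and each diet has 1 library, so no test was run. The members and all gene lists were chosen with earlier results of these data known. Genes named beside the members were the other family members, the 2 highest and 2 lowest of each list among genes averaging 5 FPKM or more, and the 5 genes nearest to LGALS1 in ratio; others are named for their role or as cell type markers, after their values were seen.

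The FPKM worth of a single fragment, depleted over normal, was 1.04, from 448 of 2288 low genes. Depth came from 199 genes with 1 transcript in GENCODE 29 (GRCh38, used for lengths only) and a whole-number pair of fragments. Of these, 78 lay within 3% of a line of fragments per FPKM on transcript length minus 204 nt. The others were left out, since a pair can be a fraction of the true counts or the transcript can differ. This step was added after the values were seen. The members' estimated fragments use the shortest coding transcript with a RefSeq match. Python 3.11.15, NumPy 2.4.6, pandas 2.3.3 and SciPy 1.17.1 were used, and the code of the steps was checked on simulated data. The simulated differences were larger than any among the members. A recovered pair of fragments was scored as right when it matched the true pair divided by its common factor. The check therefore does not bear on differences near 2-fold or on pairs that are a fraction of the true counts. Alternatives covered the pseudocount, the scaling, the filter and the fold.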

Additional observations from a re-analysis of the deposited data

How the results depend on the processing

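No paired analysis was possible because there is a single library per diet, which also leaves none to omit. The members other than LGALS1 are too far from 2-fold for these alternatives to bear on that mark. Scaled to a common sum, LGALS9 moved from -0.07 to -0.02, and the same without short RNAs, and the other members moved by about the same amount. LGALS1 was -0.77 with a pseudocount of 5 FPKM, which by construction shrinks low values, and over 6 alternatives of pseudocount and scaling it ran from -1.31, with no pseudocount (an alternative chosen after seeing the data), to -0.77. Members at least 2-fold lower numbered 0, in place of 1, with that pseudocount and at 3-fold. All genes at least 2-fold lower, 46 as reported, were 93 with a pseudocount of 0.1, 20 with 5, 72 without a filter, 23 at a mean of at least 5 FPKM, 189 at 1.5-fold and 28 at 3-fold. Those higher, 65 as reported, were 124, 35, 40 and 205 with the pseudocounts of 0.1 and 5, a mean of at least 5 FPKM and 1.5-fold. With the common sum without short RNAs, which moved the median of all genes from close to 0 to 0.04, the medians became -0.05 for the lysosome list, -0.07 for interferon, -0.02 for colon epithelium and -0.0015 for surface partners. The macrophage and neutrophil median, 0.55 as reported, was 0 without a filter, where genes listed at 0 enter. The medians of glycan synthesis and of apical genes, both -0.04, changed sign in 2 alternatives each, up to 0.0056. As reported, both medians are the value of GAL3ST1, a gene in both lists, so they are not separate results. Among the members, few fragments limit LGALS1 most. The estimate for LGALS8 is also low, but it depends on the transcript length chosen.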
